A study of Mus musculus with 20 samples.

Results

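The genes described here encode lysosomal hydrolases, their cofactors and proteins of the lysosomal membrane, 44 genes of the 24421 in the count tables. They were taken from a fixed list of symbols that leaves out the cathepsins, and all 44 were found in the tables and passed the filter on low counts. By the role of the encoded protein, 15 act on glycans (the sugar chains of glycosaminoglycans, glycoproteins and glycogen), 8 on sphingolipids, 6 on other lipids and 5 on proteins or as a precursor of small secreted proteins. The other 10 are 2 acid phosphatases and 8 membrane proteins. All 44 are protein-coding in GENCODE release M21 and they lie on 17 chromosomes.

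Bulk RNA of macrophages from C57BL/6JRj mice was sequenced in 20 libraries, 4 from each of 5 populations. MHC II-high and MHC II-low macrophages came from the dura, the outer membrane around the brain; the titles of the second group read "int" and its cell type label reads "lo". Choroid plexus macrophages came from the tissue that secretes cerebrospinal fluid, microglia (replicates 1, 3, 4 and 5) from the brain, and peritoneal macrophages from the peritoneal cavity. No treatment or engineered allele is named for any population, and age, sex, isolation of the cells and the number of animals behind a library are given in none of the sources used here. P-values therefore measure the spread between libraries, which may be technical. In bulk RNA, fewer cells of a type and less RNA per cell cannot be told apart.

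Lysosomes are acidic compartments in which macrophages break down what they engulf and what autophagy delivers. Sugar chains and lipids are largely taken apart from their ends by enzymes acting in a fixed order. Loss of 1 such enzyme can leave its substrate undigested and cause a storage disease. Several enzymes need a non-enzymatic helper that lifts a lipid out of the membrane, such as the saposins cut from Psap, or Gm2a. Transcription factors of the TFEB family bind a palindromic word with the core CACGTG that is found near the start of many lysosomal genes.

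Gene counts came to 13383274–32611875 per library. Levels are given in CPM, counts scaled to a common TMM-adjusted library size, as mean ± SD with n = 4, and values of single libraries follow in replicate order. Log2 fold changes are given ± SE, the first-named population minus the second. In the macrophage core list, which holds Cd68, all 6 genes had counts in each population, with sums of 7870–20200 CPM per library. The sum over 4 markers of peritoneal macrophages was 3950–6740 CPM there and at most 16.0 CPM elsewhere. That of 5 microglia markers was 23400–31600 CPM in microglia, 5480–6180 CPM in choroid plexus and 374–2500 CPM elsewhere. The 4 MHC class II genes summed to 52500–58900 CPM in MHC II-high dura, 43700–61500 in choroid plexus and 2090–2320 in MHC II-low dura. They summed to 113–188 CPM in microglia and 483–4650 in peritoneal macrophages. For 4 border macrophage markers the sum was 2450–6370 CPM in dura and choroid plexus, 17.2–22.4 in microglia and 754–1860 in peritoneal macrophages. One microglia library, replicate 3, stood apart: 13 markers of choroid plexus epithelium summed to 20600 CPM in it, to 68.7–726 CPM in the other microglia and to 4060–7650 CPM in choroid plexus macrophages. Markers of other cells also differed: 6 fibroblast markers summed to 286–968 CPM in choroid plexus, 155–314 and 138–197 CPM in MHC II-high and MHC II-low dura, 4.96–110 CPM in microglia and at most 0.864 CPM in peritoneal macrophages, where Dcn, Lum and Pdgfra were at 0. The sum of 6 endothelial markers was 82–141 CPM in microglia, 29–62.1 CPM in choroid plexus, 13.1–32.1 and 3.66–10.5 CPM in MHC II-high and MHC II-low dura and 0.814–2.49 CPM in peritoneal macrophages, where Cldn5 and Kdr were at 0. The sum of 4 mast cell markers was at most 5.61 CPM, with each at 0 in microglia, and that of 3 neutrophil markers at most 1.79 CPM. For 4 B cell markers it was 59.2–72.5 CPM in choroid plexus and 4.26–53.1 CPM elsewhere. The sum of 6 astrocyte markers was 108–150 CPM in microglia and at most 82.3 CPM elsewhere, that of 6 oligodendrocyte markers 175–301 CPM over the libraries, and those of neuron, T and NK cell, dendritic cell and mesothelium markers at most 30.3 CPM. Results that replicate 3 of microglia decides are given with and without it, and the part of these markers in the differences was not tested.

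Promoters were searched because the word of the TFEB family links many lysosomal genes, and the runs below show where it lies in 7 members whose levels are described further on. The windows, from 250 bases before to 50 bases after the start, are those of RefSeq on GRCm38.p6, and 38 of the 44 members had one. The 30-base runs read 5′ to 3′ on the strand of the gene, and capitals mark the word. One run is printed for each. Positions were listed only where all 30 bases of a run lay within the 250 bases before the start. Among the listed positions, Lamp1 holds 2 more matches, at −45 and −28, Gla another at −195 and Mcoln1 another at −71. Other matches in the windows count in the shares below, but their positions are not given.
Glb1, chr9:114401018-114401047, plus strand: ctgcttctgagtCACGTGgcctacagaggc
Naglu, chr11:101070009-101070038, plus strand: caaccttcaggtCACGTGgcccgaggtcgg
Lgmn, chr12:102439124-102439153, minus strand: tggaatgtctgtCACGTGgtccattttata
Lamp1, chr8:13159088-13159117, plus strand: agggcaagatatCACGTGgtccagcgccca
Gla, chrX:134601215-134601244, minus strand: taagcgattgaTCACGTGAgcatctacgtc
Dpp7, chr2:25356388-25356417, minus strand: ccgccagactaTCACGTGAtgctgccccgc
Mcoln1, chr8:3500462-3500491, plus strand: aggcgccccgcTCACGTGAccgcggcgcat
The words begin at −48, −73, −49, −61, −228, −74 and −46 bases from the start, in the order printed. These starts are those of RefSeq. In GENCODE M21 the printed words of Naglu (chr11:101070012-101077672), Lgmn (chr12:102394084-102439813) and Mcoln1 (chr8:3500457-3515232) lie inside the span of the gene. Lgmn had 2 windows, and its printed word lies furthest inside. CACGTG, which reads the same on both strands, was in 11 of 38 members, or 28.9%, against 8.09% of 27025 genes with a window of the same length. The longer TCACGTGA, which contains it, was in 3 members (7.89%, against 1.12% of genes), and CACGTGAC, searched on both strands and overlapping both, in 8 members (21.1%, against 2.55%). The 11 members are Gaa, Glb1, Naglu, Sgsh, Gla, Arsa, Plbd1, Lgmn, Dpp7, Lamp1 and Mcoln1. In peritoneal macrophages against microglia 2 of the 11 were called higher and 1 lower, where 18.9% of all genes were called higher and 25.7% lower by the rule given in the next paragraph. Of the 27 members with a window but without the word 2 were higher and 5 lower. Against MHC II-high dura 3 of the 11 were higher and 2 lower in peritoneal macrophages (all genes 9.18% and 20.1%). Of the 27, 1 was higher and 6 were lower. Against MHC II-low dura the 11 had 2 and 3 and the 27 had 0 and 8 (all genes 11.9% and 20%). Against choroid plexus the 11 had 1 and 3 and the 27 had 0 and 7 (all genes 12.6% and 24.1%). These counts are small, and the 2 sets were not tested against each other. Nothing particular to the members with the word is drawn from them. A match is a run of letters and does not show binding.

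The lysosomal genes ranged from near even to widely different between populations. The mean of the highest population was under 2 times that of the lowest for 20 members and between 2 and 5 times for 18, with a median ratio of 2.07 over the 44. For 6 members it was over 9 times, namely Plbd1 (a phospholipase B-like protein), the acid phosphatase Acp5, the tetraspanin Cd63, the sulfatase Arsb, the acetyltransferase Hgsnat and the protease Lgmn. In the edgeR quasi-likelihood F test over all 5 populations 43 of 44 members were called at an adjusted p under 0.05, against 81.4% of the 13960 genes tested. The exception was Grn (edgeR adjusted p = 0.122). In single comparisons a gene was called at an edgeR adjusted p under 0.05 over all genes and at least a 2-fold change. By that rule 20 members were called in none of the 10 comparisons, and 92 of the 440 tests of a member in a comparison were calls. Comparisons that share a population share its libraries.

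**Figure D1:**
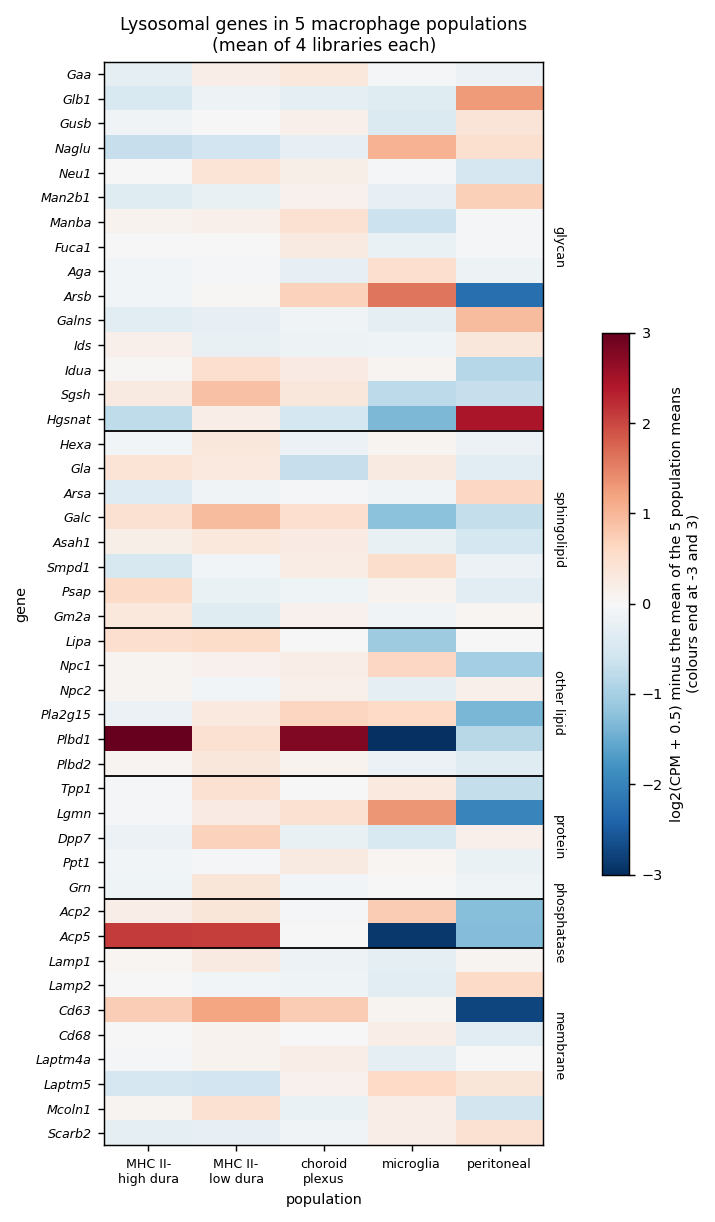
Heat map of the 44 members (rows, grouped by role) in 5 populations (columns); colour is the population mean of log2(CPM + 0.5) minus the mean of the 5 population means, on a scale that ends at −3 and 3. Most rows are pale, and the deep colours lie in Plbd1, Acp5, Cd63, Arsb, Hgsnat and Lgmn.

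Against microglia, both dura populations and the choroid plexus macrophages had more of Plbd1, Acp5, Galc, Lipa and Sgsh and less of Naglu. In MHC II-high dura 5 members were called higher and 5 lower, or 22.7% of the members against a background of 27.9% of all genes (15.7% higher and 12.2% lower). In MHC II-low dura 8 were higher and 4 lower, 27.3% against 26.5% (13.8% higher and 12.7% lower), and in choroid plexus 6 were higher and 1 lower, 15.9% against 19.2% (12.1% and 7.11%). The dura populations also had less of Arsb, Lgmn and the membrane protein Laptm5 than microglia. Without microglia replicate 3 the counts called were 8, 12 and 8. Among the dura and choroid plexus populations themselves little was called. Plbd1 alone was higher in MHC II-high than in MHC II-low dura, 2.27% of members against 3.88% of all genes (2.39% higher and 1.48% lower), and the count was 2 without MHC II-high replicate 1 or MHC II-low replicate 3 or 4, where Hgsnat passed 2-fold (−1.01, −1.03 and −1.02). Choroid plexus against MHC II-high dura had 0 members higher and 2 lower, Acp5 and, in some fits only, Gla (4.55% against 9.88% of all genes, 5.87% higher and 4% lower), and against MHC II-low dura 1 higher and 1 lower (4.55% against 12.8%, 8.63% higher and 4.18% lower). The medians of the sizes of the log2 changes over the 44 members were 0.23, 0.239 and 0.327 in these 3 comparisons, and 0.26, 0.364 and 0.371 over all genes.

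Peritoneal macrophages had more of Hgsnat, Glb1 and Galns than each of the other 4 populations and less of Arsb, Npc1, Pla2g15, Lgmn, Acp2 and Cd63. They had 6 members higher and 7 lower than microglia (29.5% of members against 44.6% of all genes, 18.9% higher and 25.7% lower), 6 higher and 9 lower than MHC II-high dura (34.1% against 29.2%, 9.18% and 20.1%), 4 higher and 12 lower than MHC II-low dura (36.4% against 31.9%, 11.9% and 20%) and 3 higher and 11 lower than choroid plexus (31.8% against 36.7%, 12.6% and 24.1%). Microglia had less of Lipa, Plbd1 and Acp5 than each other population. Without microglia replicate 3 the change of Lipa in choroid plexus against microglia was 0.971, short of 2-fold. Arsb and Lgmn then passed 2-fold in that comparison (−1.09 and −1.01) and were higher in microglia than in each other population. No member was set apart in this way, called in 1 direction against all 4 others, in either dura population or in choroid plexus. Over all genes 6.02% were set apart higher and 12.2% lower in peritoneal macrophages, and 5.95% lower and 4.04% higher in microglia. In MHC II-high dura, MHC II-low dura and choroid plexus 0.272%, 0.265% and 0.745% of all genes were set apart higher, and 0.1%, 0.208% and 0.179% lower. In each comparison the share of members called was thus below the share of all genes or no more than a few points above it.

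By the adjusted p alone, with no minimum fold, more of the members than of all genes passed. Between the dura populations 14 of 44 members did, 31.8% against 11% of all genes. Against microglia 29 members passed in MHC II-high dura and 29 in MHC II-low dura (65.9% each, against 53.5% and 51% of all genes) and 31 in choroid plexus (70.5% against 42.4%). Choroid plexus differed from MHC II-high dura in 17 members (38.6% against 26.3%) and from MHC II-low dura in 20 (45.5% against 29.2%). In peritoneal macrophages 36 passed against microglia (81.8% against 69.3%), 32 against MHC II-high dura (72.7% against 54.3%), 34 against MHC II-low dura (77.3% against 57.6%) and 35 against choroid plexus (79.5% against 62.8%). The members' differences were thus often past the spread between libraries but below 2-fold. The median member was at 241 CPM on average over the 20 libraries and the median gene tested at 18.7 CPM, and the part of level in these shares was not tested.

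**Figure D2:**
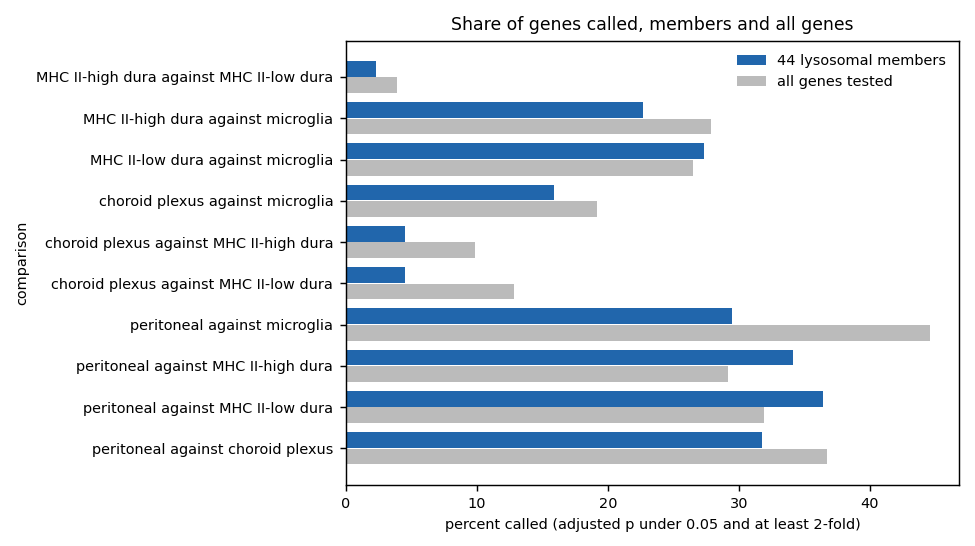
Percent of genes called (horizontal axis, adjusted p under 0.05 and at least 2-fold) in the 10 comparisons, for the 44 members (blue) and for all 13960 genes tested (grey). The blue bar exceeds the grey one by at most a few points, in peritoneal macrophages against both dura populations and in MHC II-low dura against microglia (27.3% and 26.5%).

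Levels of different genes are compared per length, in RPKM, CPM per kilobase of annotated exons. Psap, the saposin precursor, had the highest RPKM of the 44 in both dura populations (2038 ± 234 and 1184 ± 62.5) and in choroid plexus (1278 ± 374). In choroid plexus Laptm5 (1027 ± 66.7) and Lgmn (1013 ± 29.1) lay within the SD of Psap. In microglia Lgmn came first with 1858 ± 214 RPKM and Psap second with 1463 ± 56.2, and in peritoneal macrophages Laptm5 came first with 1210.1 ± 261 and Psap second with 1099 ± 236. In peritoneal macrophages these 2 means lay within their SDs of each other. The lowest RPKM in both dura populations was that of the cholesterol exporter Npc1 (4.50 ± 0.637 and 4.69 ± 0.535). Acp5 was lowest in choroid plexus (2.65 ± 0.749) and peritoneal macrophages (0.919 ± 0.248), and Plbd1 in microglia (0.135 ± 0.147).

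Summed over their genes, the glycan, sphingolipid and protein classes took different shares of the gene counts in the 5 populations. The 15 glycan genes took 0.284% ± 0.0174 (SD, n = 4) in MHC II-high dura, 0.342% ± 0.0196 in MHC II-low dura, 0.369% ± 0.0209 in choroid plexus, 0.352% ± 0.0341 in microglia and 0.568% ± 0.095 in peritoneal macrophages, where the lowest library (0.473%) lay above the highest of any other (0.399%). The 8 sphingolipid genes took 0.818% ± 0.0608 in MHC II-high dura, the highest share, and 0.536% ± 0.0625 in peritoneal macrophages, the lowest; the others were at 0.65% ± 0.0279, 0.605% ± 0.076 and 0.658% ± 0.0285 in MHC II-low dura, choroid plexus and microglia. The 5 protein-class genes took 0.814% ± 0.0891 in microglia and 0.381% ± 0.073 in peritoneal macrophages, and 0.499% ± 0.0777, 0.69% ± 0.054 and 0.577% ± 0.0222 in MHC II-high dura, MHC II-low dura and choroid plexus. Highly expressed genes weigh most in such sums, Hgsnat and Man2b1 in the peritoneal glycan sum, Psap in the sphingolipid sum and Lgmn and Grn in the protein-class sum. The gap in the protein-class sum between microglia and peritoneal macrophages lay mostly in Lgmn. Its mean was 4316 CPM over the microglia libraries, against 435 CPM over the peritoneal ones. For Grn, the granulin precursor, the corresponding means were 2866 and 2671 CPM. Between peritoneal macrophages and microglia the median gene moved less than the sum in the glycan and protein classes. Over the 15 glycan genes the median log2 change of peritoneal macrophages against microglia was 0.13 and over 5 protein-class genes −0.27. Over 8 sphingolipid genes it was −0.28 and over all genes −0.11. All 44 members together took 2.98% ± 0.212 in microglia and 2.57% ± 0.157 to 2.71% ± 0.103 in the other populations.

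**Figure D3:**
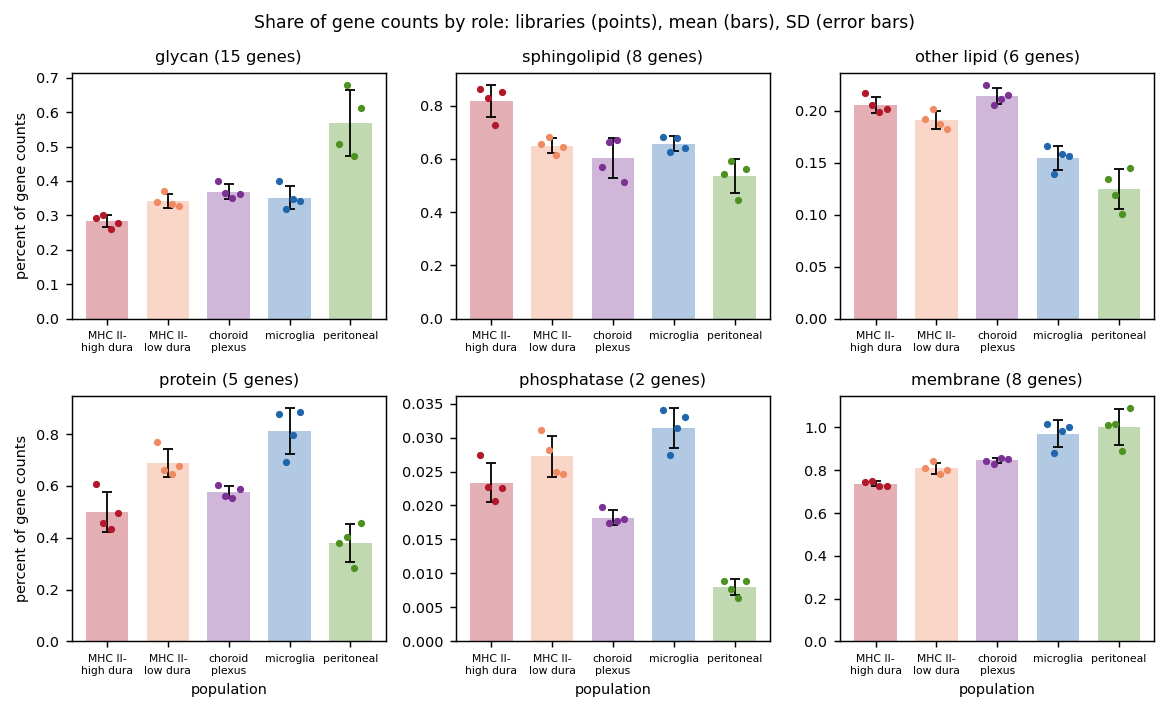
Share of gene counts (percent, axes from 0) taken by each role class in the 5 populations; points are libraries, bars means and error bars SD, n = 4. The peritoneal libraries are highest in the glycan panel (0.473% to 0.679%) and low in the protein, phosphatase and other lipid panels.

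Heparan sulfate is a sulfated sugar chain of cell surfaces and matrix, and its breakdown needs sulfatases, glycosidases and 1 acetyltransferase acting in turn. The enzymes of this chain were highest in different populations. Hgsnat, the membrane enzyme that acetylates the glucosamine end, was at 1206, 1535, 1108 and 1517 CPM in peritoneal libraries, 276, 335, 251 and 251 in MHC II-low dura, 179, 164, 171 and 154 in choroid plexus, 153, 136, 134 and 142 in MHC II-high dura and 103, 91.9, 95.2 and 86.6 in microglia. All peritoneal libraries lay far above all others, and the microglia libraries were the lowest. Its log2 fold change was 3.83 ± 0.13 against microglia and 2.27 ± 0.12 against MHC II-low dura (edgeR adjusted p = 8.82e-16 and 1.71e-12), and 1.56 ± 0.12 in MHC II-low dura against microglia (edgeR adjusted p = 6.62e-10).

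Naglu removes the glucosamine that Hgsnat has acetylated. Its libraries read 378, 309, 317 and 369.7 CPM in microglia, 246, 233, 188 and 271 in peritoneal macrophages and 148, 138, 139 and 141 in choroid plexus. In MHC II-high dura they read 126, 89.8, 87.2 and 113 CPM and in MHC II-low dura 125, 122, 95.2 and 108. Microglia were thus highest for Naglu and lowest for Hgsnat, with no overlap with any other population for either gene. Naglu was −1.72 ± 0.13 in MHC II-high dura, −1.61 ± 0.13 in MHC II-low dura and −1.28 ± 0.13 in choroid plexus against microglia (edgeR adjusted p of 9.07e-08 or less). Peritoneal macrophages exceeded both dura populations, by 1.17 ± 0.13 and 1.06 ± 0.13 (edgeR adjusted p = 1.76e-07 and 5.9e-07). Leaving out MHC II-low replicate 3 put the second value at 0.990, short of 2-fold.

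Sgsh, the sulfatase that removes the N-sulfate group, showed another order, with the dura and choroid plexus above microglia and peritoneal macrophages. Its libraries read 54.0, 76.5, 54.5 and 54.6 CPM in MHC II-low dura, 42.3, 41.0, 41.4 and 37.8 in choroid plexus and 34.3, 45.8, 39.7 and 36.3 in MHC II-high dura. In peritoneal macrophages they were at 15.1, 25.4, 15.8 and 24.5 CPM and in microglia at 23.8, 18.2, 13.5 and 19.2. Replicate 2 of MHC II-low dura stood above the other 3 libraries of that group. Sgsh was higher than in microglia by 1.68 ± 0.18 in MHC II-low dura (edgeR adjusted p = 2.16e-07). The calls in MHC II-high dura (1.06) and choroid plexus (1.12) against microglia fell short of 2-fold without microglia replicate 4 (0.877 and 0.930), the first also without MHC II-high replicate 2 or 3 (0.976 and 0.995) or microglia replicate 3 (0.989). The call in MHC II-high dura was also lost under DESeq2 (0.979), RLE (0.979) and upper-quartile scaling (0.955), with a filter of 10 CPM (0.989) and with the replicate number as a block (0.990). Peritoneal macrophages were lower than MHC II-low dura (−1.57 ± 0.18, edgeR adjusted p = 3.48e-07). Peritoneal macrophages were called lower than MHC II-high dura without peritoneal replicate 2 or 4 (−1.08 and −1.03). Against choroid plexus the peritoneal value of −1.01 was at the 2-fold line and was not called in 12 of the 20 fits that left out a library (−0.979 to −0.896). Exons of Card14 on the other strand cover 21.6% of the Sgsh exons, and Card14 had 0–76 counts per library where Sgsh had at least 233. These counts do not show how reads in the shared exons were assigned. The strand setting of the counting is not given, so the values of Sgsh are uncertain to that extent.

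Idua and Ids, an iduronidase and an iduronate sulfatase, act on both heparan and dermatan sulfate. Idua averaged 46.8 ± 15.4 CPM in peritoneal macrophages and 116 ± 9.95 CPM in MHC II-low dura, a log2 change of −1.31 ± 0.17 (edgeR adjusted p = 1.19e-06). Against choroid plexus (97.2 ± 2.31 CPM) the change was −1.06 ± 0.17, or −0.871 without peritoneal replicate 3, which had the lowest Idua value of all libraries (27.3 CPM). Against microglia the change of −0.91 ± 0.17 was called without peritoneal replicate 4 (−1.11). Ids was called in no comparison, with means of 109–163 CPM. Outside the 44 genes, heparanase (Hpse), which cuts within the heparan sulfate chain, was at 158 ± 21.8 CPM in peritoneal macrophages, 83.7 ± 6.59 and 41.4 ± 7.05 CPM in MHC II-low and MHC II-high dura, and 0.834 ± 0.859 and 0.831 ± 0.525 CPM in choroid plexus and microglia.

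**Figure D4:**
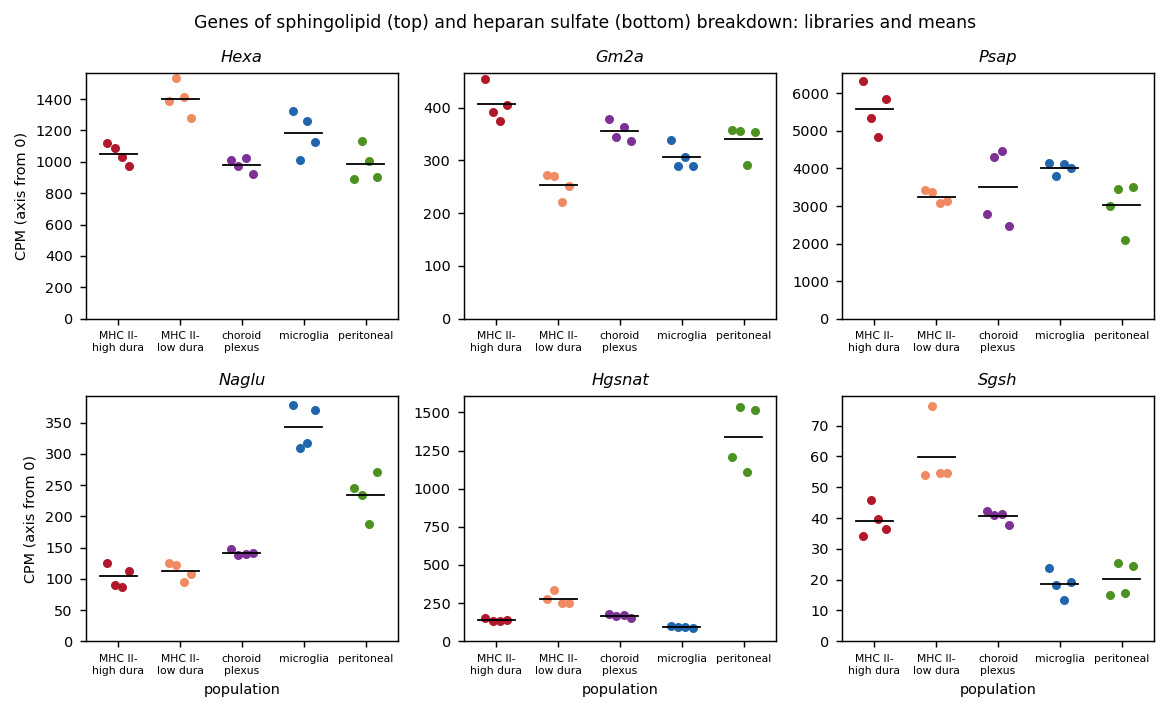
CPM (vertical axes, from 0) of Hexa, Gm2a and Psap, genes of sphingolipid breakdown (top), and of Naglu, Hgsnat and Sgsh, enzymes of heparan sulfate breakdown (bottom), in the 5 populations; points are libraries and lines means. Hexa stays between 892 and 1532 CPM while Psap spans 2104 to 6326 CPM, and Naglu, Hgsnat and Sgsh each peak in a different population.

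Galns and Glb1 act in turn on keratan sulfate, Galns as the sulfatase and Glb1 as the galactosidase, which also cuts the lipid GM1 and glycoproteins. Both were higher in peritoneal macrophages than in each other population. Glb1 was at 269, 423, 292 and 326 CPM in peritoneal libraries, against 121, 124, 113 and 114 in MHC II-low dura, 117, 107, 100.2 and 107 in choroid plexus, 120.2, 95.6, 103 and 94.3 in microglia and 107, 93.1, 90.4 and 92.6 in MHC II-high dura. The 16 libraries of the other 4 populations together spanned 90.4–124 CPM, and neighbours in the order of these 4 means did not differ beyond their spread (edgeR adjusted p of 0.416 to 0.738). At the ends of that order, every MHC II-low library (113–124 CPM) lay above every MHC II-high one (90.4–107 CPM). The peritoneal excess was 1.66 ± 0.12 over microglia, 1.77 ± 0.12 over MHC II-high dura, 1.47 ± 0.12 over MHC II-low dura and 1.61 ± 0.12 over choroid plexus (edgeR adjusted p of 1.48e-09 or less).

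Galns was at 81.5, 61.1, 39.3 and 74.8 CPM in peritoneal macrophages. It was at 32.2, 26.2, 30.3 and 31.5 CPM in choroid plexus, 28.2, 26.7, 30.7 and 22.9 in MHC II-low dura, 28.3, 24.4, 27.4 and 26.0 in microglia and 28.8, 22.8, 24.9 and 24.8 in MHC II-high dura. No library of these 4 populations reached the lowest peritoneal one, replicate 3. The log2 fold change was 1.27 ± 0.16 against microglia and 1.09 ± 0.16 against choroid plexus (edgeR adjusted p = 8.32e-07 and 8.34e-06), the second 0.955 without peritoneal replicate 1. The partner of Glb1 in a shared complex, the sialidase Neu1, went the other way in level but was called nowhere. Neu1 was at 75.8, 72.0, 73.9 and 76.1 CPM in peritoneal macrophages, 97.2, 99.8, 99.6 and 108 in microglia, 106, 103, 101 and 104 in MHC II-high dura, 114, 132, 118 and 114 in choroid plexus and 138, 157, 142 and 125 in MHC II-low dura. The peritoneal libraries were all below all others, with changes of −0.44 ± 0.08 against microglia to −0.91 ± 0.08 against MHC II-low dura (edgeR adjusted p = 3.94e-05 and 3.29e-09), short of 2-fold.

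Arsb, the sulfatase of dermatan and chondroitin sulfate, was lowest where Glb1 and Galns were highest. Its libraries stood at 849.7, 553, 644 and 640.2 CPM in microglia, 373, 381, 339.9 and 307 in choroid plexus and 242, 227, 202 and 216 in MHC II-low dura. They were at 224, 201, 198 and 191 CPM in MHC II-high dura and 48.3, 48.4, 33.4 and 52.4 in peritoneal macrophages. Microglia were above and peritoneal macrophages below every other library, with choroid plexus between microglia and dura. Peritoneal macrophages were lower, at −3.88 ± 0.15 against microglia, −2.94 ± 0.14 against choroid plexus, −2.28 ± 0.14 against MHC II-low and −2.16 ± 0.14 against MHC II-high dura (edgeR adjusted p of 5.81e-11 or less). Both dura populations were lower than microglia (−1.72 ± 0.14 and −1.60 ± 0.14, edgeR adjusted p = 1.62e-09 and 4.97e-09). Choroid plexus was lower than microglia at −0.94 ± 0.13, just short of 2-fold, and was called without microglia replicate 3 (−1.09) or any of 7 other libraries (−1.05 to −1.001). With all libraries it was called under DESeq2 (−1.003), RLE (−1.004) and upper-quartile scaling (−1.004), and with the 2 populations alone (−1.03). Exons of 2 unnamed gene models on the other strand cover 39.9% of the exon length of Arsb, and the strand setting of the counting is not given, so its values are uncertain to that extent. Gusb, the glucuronidase of several glycosaminoglycans, was called in no comparison (means 311–545 CPM).

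The enzymes of glycoproteins and of glycogen were closer to even. Manba, a mannosidase, was lowest in microglia (82.8, 65.9, 73.7 and 64.4 CPM) and highest in choroid plexus (169.6, 161, 154 and 139.6 CPM), with 128, 139.9, 101 and 116 CPM in MHC II-high dura, 123, 128, 125 and 121 in MHC II-low dura and 118, 110.4, 92.3 and 113 in peritoneal macrophages. Every microglia library lay below every other library, and choroid plexus exceeded microglia by 1.12 ± 0.11 (edgeR adjusted p = 4.62e-08). The second mannosidase, Man2b1, was highest in peritoneal macrophages, at 1737, 2775, 1583 and 2427 CPM, against means of 985–1386 CPM elsewhere. With all libraries it was called against MHC II-high dura (1.11 ± 0.15, edgeR adjusted p = 3.68e-06), and there not without peritoneal replicate 2 (0.962). Against MHC II-low dura its change of 0.99 lay at the 2-fold line. It was called there without peritoneal replicate 1 or 3 (1.07 and 1.10), and at 1.01 to 1.03 under DESeq2, RLE and upper-quartile scaling, with the 2 populations alone and without any 1 of 6 further libraries (replicates 3 and 5 of microglia, 1 and 3 of MHC II-high dura, 2 of MHC II-low dura and 1 of choroid plexus). Against microglia (0.99) it was called without peritoneal replicate 1 or 3 (1.08 and 1.11) or microglia replicate 1 (1.04). Fuca1, a fucosidase (means 185–257 CPM), Aga, which cuts sugar chains from asparagine (30.7–51.7 CPM), and Gaa, the glucosidase of glycogen (218–329 CPM), were called in no comparison. Aga was highest in microglia, where its 4 libraries lay within 51.1–52.5 CPM.

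Sphingolipids are membrane lipids whose sugar heads are removed step by step down to ceramide. In this class Galc, which removes galactose from the myelin lipid galactosylceramide, was the member called in the most comparisons, lower in microglia and peritoneal macrophages than in the dura and choroid plexus. Its libraries were at 126, 139, 119 and 131 CPM in MHC II-low dura, 98.1, 101, 89.4 and 88.9 in choroid plexus and 77.9, 103, 104 and 84.7 in MHC II-high dura. They were at 42.8, 45.0, 43.5 and 31.1 CPM in peritoneal macrophages and 34.7, 25.7, 28.8 and 24.3 in microglia. The dura and choroid plexus libraries lay above all libraries of the other 2 populations. Galc exceeded microglia by 1.70 ± 0.13 in MHC II-high dura, 2.18 ± 0.13 in MHC II-low dura and 1.73 ± 0.13 in choroid plexus (edgeR adjusted p of 1.43e-09 or less), and peritoneal macrophages were lower, at −1.18 ± 0.13, −1.66 ± 0.13 and −1.21 ± 0.13 than the same 3 (edgeR adjusted p of 1.55e-07 or less). Peritoneal macrophages exceeded microglia by 0.52, short of 2-fold.

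Hexa and the activator Gm2a act in the breakdown of the ganglioside GM2. Both genes were called in no comparison. The means of Hexa were 1181 ± 141 CPM in microglia, 982 ± 45.6 in choroid plexus, 1052 ± 65.6 and 1402 ± 103 in MHC II-high and MHC II-low dura and 983 ± 113 in peritoneal macrophages. In peritoneal macrophages against microglia the log2 change of Hexa was −0.26 ± 0.10. Gm2a was at 454, 391, 375 and 404 CPM in MHC II-high dura and 273, 270.2, 222 and 251 in MHC II-low dura. It was at 379, 345, 363 and 337 CPM in choroid plexus, 357, 356, 292 and 354 in peritoneal macrophages and 339, 290.0, 307 and 289.9 in microglia. Every MHC II-high library exceeded every MHC II-low one, with a change of 0.68 ± 0.09 (edgeR adjusted p = 5.93e-05), short of 2-fold.

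Psap, cut into the saposins that serve Galc, Arsa and Asah1, was also higher in MHC II-high than in MHC II-low dura. In CPM its libraries were at 6326, 5338, 4842 and 5859 CPM in MHC II-high dura and 3416, 3372, 3072 and 3130.2 in MHC II-low dura. They were at 4135, 3797, 4113 and 4009 CPM in microglia, 3000.1, 3453, 2104 and 3502 in peritoneal macrophages and 2781, 4316, 4459 and 2472 in choroid plexus. The 2 dura populations did not overlap and differed by 0.78 ± 0.17 (edgeR adjusted p = 0.00484), short of 2-fold. The choroid plexus libraries fell into 2 pairs, replicates 2 and 3 at 4316 and 4459 CPM and replicates 1 and 4 at 2781 and 2472 CPM.

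Smpd1, the sphingomyelinase, was highest in microglia (132 ± 19.0 CPM) and lowest in MHC II-high dura (64.6 ± 4.42 CPM), a change of −1.03 ± 0.10 (edgeR adjusted p = 6.21e-08) that fell short of 2-fold without MHC II-high replicate 4 (−0.980) or microglia replicate 3 (−0.989). Arsa, the sulfatase of sulfatide, was highest in peritoneal macrophages (142 ± 23.4 CPM) and lowest in MHC II-high dura (70.6 ± 3.11 CPM). That difference of 1.01 ± 0.11 (edgeR adjusted p = 1.64e-07) was also lost without peritoneal replicate 1 (0.999) or 4 (0.942). Asah1, the ceramidase at the end of the pathway, was called in no comparison (means 635–1127 CPM). Gla, the galactosidase of globotriaosylceramide, varied within populations: its libraries were at 29.6, 28.4, 58.7 and 29.3 CPM in MHC II-high dura, 31.4, 16.9, 53.5 and 37.5 in MHC II-low dura, 10.6, 29.0, 17.8 and 11.8 in choroid plexus, 20.8, 54.4, 34.96 and 25.4 in microglia and 24.7, 20.1, 22.6 and 17.1 in peritoneal macrophages. The libraries of choroid plexus and MHC II-high dura overlapped, and the call between them (−1.07 ± 0.38, edgeR adjusted p = 0.0458) was lost in 11 of 20 fits without a library, among them MHC II-high replicate 3 (−0.749, adjusted p = 0.165). Conversely Gla was called lower in choroid plexus than in MHC II-low dura without choroid plexus replicate 2 (−1.39, edgeR adjusted p = 0.0126) or any of 4 other libraries (−1.23 to −1.01), against −1.01 ± 0.38 and adjusted p = 0.0549 with all. Against microglia Gla was at −0.97 in choroid plexus and was called lower without any of 7 libraries (−1.39 to −1.03). With all libraries it was called there under DESeq2 (−1.03), RLE (−1.03) and upper-quartile scaling (−1.03). A filter of 10 CPM (−1.02) and the replicate block (−1.005) also gave the call.

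The widest member of all was Plbd1, a phospholipase B-like protein of the lysosome. Its libraries read 515, 430.3, 454 and 494 CPM in MHC II-high dura, 311, 302, 309.9 and 296 in choroid plexus and 61.4, 65.8, 45.4 and 73.5 in MHC II-low dura. They were at 32.8, 25.8, 10.3 and 39.6 CPM in peritoneal macrophages and 0.439, 0.864, 0.116 and 0 in microglia, where the 4 libraries together held 23 counts. The populations did not overlap in any pair. Plbd1 was 2.94 ± 0.33 higher in MHC II-high than in MHC II-low dura (edgeR adjusted p = 1.53e-05) and 2.31 ± 0.33 higher in choroid plexus than in MHC II-low dura (edgeR adjusted p = 4.43e-05). Against microglia it was 10.35 ± 0.52 in MHC II-high dura, 9.72 ± 0.51 in choroid plexus, 7.41 ± 0.50 in MHC II-low dura and 6.23 ± 0.50 in peritoneal macrophages (edgeR adjusted p of 3.37e-09 or less), or 11.20, 10.57, 8.26 and 7.11 without microglia replicate 3. Peritoneal macrophages were lower than MHC II-low dura at −1.18 ± 0.32 (edgeR adjusted p = 0.00403), or −0.910 without peritoneal replicate 3. The related Plbd2 was called in no comparison (means 98.0–157 CPM).

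**Figure D5:**
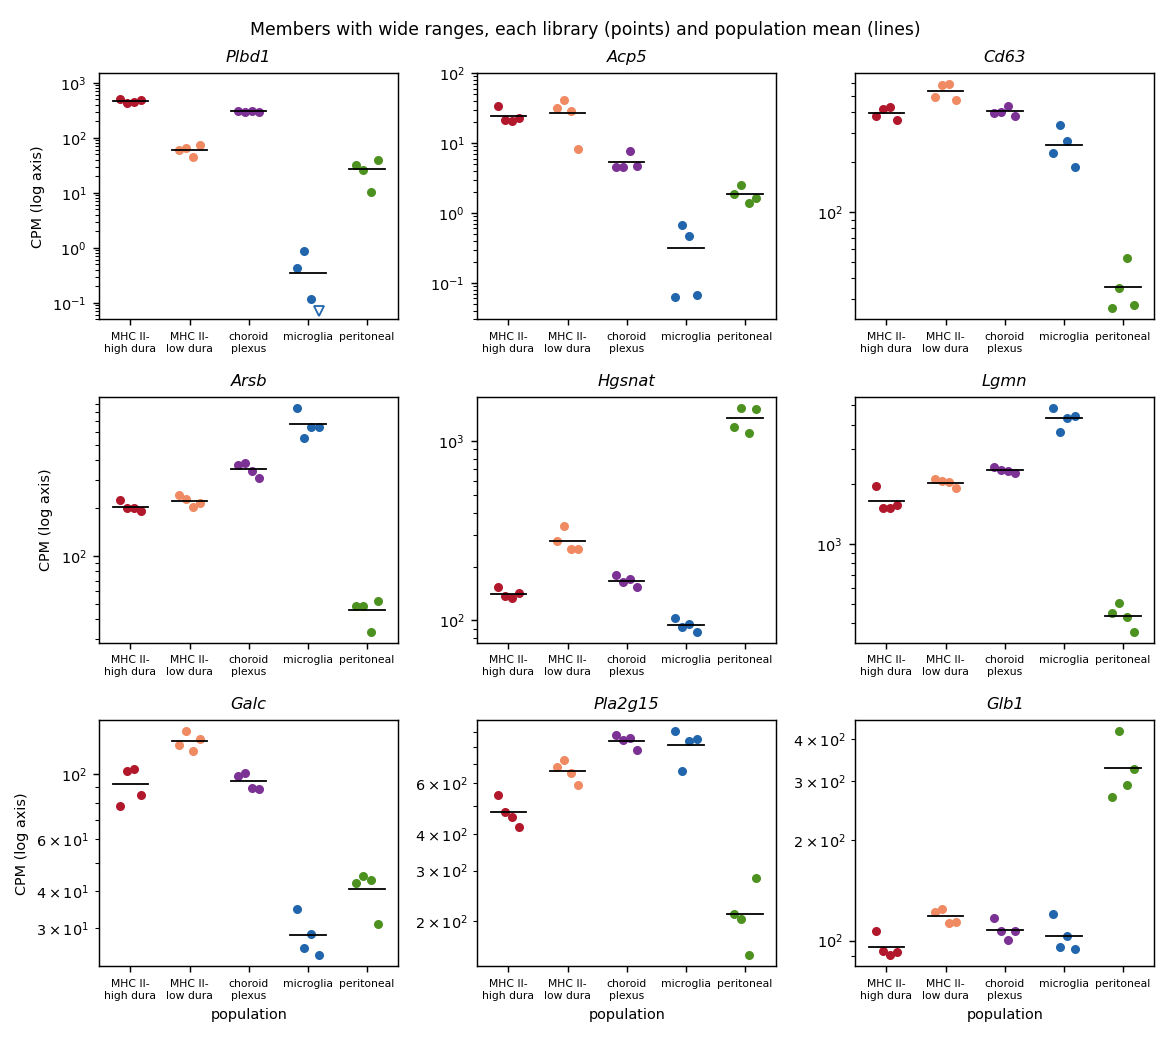
CPM of 9 members in each library (log axes; points are libraries, lines means, and the open triangle at the axis foot marks a library with 0 counts) in the 5 populations. Plbd1 and Acp5 fall lowest in microglia, Cd63, Arsb, Lgmn and Pla2g15 lowest in peritoneal macrophages, and Hgsnat and Glb1 rise there.

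Lipa, the acid lipase that frees cholesterol and fatty acids from esters, was lower in microglia than anywhere else. Its libraries lay at 173, 147, 158 and 154 CPM in microglia, 341, 324, 349 and 315 in choroid plexus and 362, 329.7, 259 and 379 in peritoneal macrophages. They were at 477, 466, 510.0 and 412 CPM in MHC II-high dura and 463, 498, 532 and 450.5 in MHC II-low dura. No microglia library reached the lowest library elsewhere. The changes against microglia were 1.56 ± 0.11 and 1.62 ± 0.11 in MHC II-high and MHC II-low dura, 1.07 ± 0.11 in choroid plexus and 1.07 ± 0.11 in peritoneal macrophages (edgeR adjusted p of 6.24e-08 or less). The choroid plexus value fell just under 2-fold without choroid plexus replicate 1 or 3 or microglia replicate 3 or 5 (0.971 to 0.998). With the 2 populations alone it was also under 2-fold (0.978). The peritoneal value fell under 2-fold without peritoneal replicate 4 (0.977).

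Cholesterol leaves the lysosome by way of Npc2, which carries it in the lumen, and Npc1, which takes it through the membrane. Npc1 was at 89.3, 61.5, 75.5 and 70.9 CPM in microglia, 57.7, 55.6, 56.7 and 51.8 in choroid plexus, 54.4, 61.0, 47.3 and 49.6 in MHC II-low dura, 47.7, 60.2, 43.4 and 52.5 in MHC II-high dura and 24.8, 25.3, 16.2 and 28.7 in peritoneal macrophages. The peritoneal libraries lay below all others. Their level was lower, at −1.65 ± 0.15 against microglia and −1.10 ± 0.15 against MHC II-high dura (edgeR adjusted p = 6.81e-09 and 3.25e-06), the second −0.955 without peritoneal replicate 3. Npc2 was at 585, 470.4, 453 and 613 CPM in peritoneal macrophages, 508, 515, 574 and 529 in choroid plexus, 564, 483, 476 and 492 in MHC II-high dura, 481, 456, 443 and 425 in MHC II-low dura and 392, 377, 393 and 388 in microglia. It was called in no comparison, and in peritoneal macrophages against microglia its change was 0.45 ± 0.09, opposite in sign to that of Npc1.

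Pla2g15, the lysosomal phospholipase A2, was also lowest in peritoneal macrophages. Its libraries measured 883, 846, 862 and 784 CPM in choroid plexus, 908, 664, 844 and 854 in microglia and 683, 724, 651 and 594 in MHC II-low dura. They were at 546, 479, 459 and 425 CPM in MHC II-high dura and 212, 205, 153 and 282 in peritoneal macrophages. Choroid plexus and microglia, the 2 highest, did not differ beyond their spread (edgeR adjusted p = 0.833), and the peritoneal libraries lay below all others. The peritoneal change was −1.99 ± 0.14 against choroid plexus, −1.94 ± 0.14 against microglia, −1.64 ± 0.14 against MHC II-low and −1.17 ± 0.14 against MHC II-high dura (edgeR adjusted p of 7.03e-07 or less).

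Among the genes of protein breakdown, Lgmn separated the populations most. Lgmn is an endopeptidase that cuts after asparagine and activates cathepsins. Its values were 4862, 3663, 4298 and 4442 CPM in microglia, 2440.2, 2370.4, 2322 and 2283 in choroid plexus and 2134, 2074, 2044 and 1908 in MHC II-low dura. They were at 1959, 1527, 1515 and 1581 CPM in MHC II-high dura and 447, 501, 431 and 361 in peritoneal macrophages. Microglia were above and peritoneal macrophages below every library of the other populations, the same ends of the order as for Arsb. Peritoneal macrophages were lower, at −3.31 ± 0.12 against microglia, −2.44 ± 0.12 against choroid plexus, −2.23 ± 0.11 against MHC II-low and −1.92 ± 0.11 against MHC II-high dura (edgeR adjusted p of 1.52e-11 or less). Both dura populations were lower than microglia, at −1.39 ± 0.11 and −1.08 ± 0.11 (edgeR adjusted p = 1.99e-09 and 7.71e-08). Choroid plexus was lower, at −0.87 ± 0.11, and at −1.01 without microglia replicate 3.

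The other protein-class genes differed less. Tpp1, a tripeptidyl peptidase, was at 269 ± 41.3 CPM in peritoneal macrophages, against 604 ± 50.6 CPM in MHC II-low dura and 541 ± 45.8 CPM in microglia. The first difference was −1.17 ± 0.10 (edgeR adjusted p = 7.87e-09). The second was −1.01 ± 0.10 and fell short of 2-fold without peritoneal replicate 3 (−0.915) or microglia replicate 1 (−0.977). Dpp7, a dipeptidyl peptidase, was highest in MHC II-low dura (109 ± 8.67 CPM) and lowest in microglia (49.4 ± 7.95 CPM), a change of 1.14 ± 0.12 (edgeR adjusted p = 1.04e-07); MHC II-high dura was at 59.6 ± 7.94 CPM, a change of −0.87 ± 0.12 from MHC II-low dura that was short of 2-fold. Ppt1, which removes palmitate from proteins, had means of 291–406 CPM and was called in no comparison. Grn, the granulin precursor, had means of 2655–3680.1 CPM with wide spread between libraries, such as 3665, 2169, 2215 and 2569 CPM in MHC II-high dura, and was the member without a call in the F test.

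The 2 acid phosphatases had different patterns. Acp5, the tartrate-resistant phosphatase typical of osteoclasts and some macrophages, was highest in the dura, at a low level. Single libraries were at 31.5, 41.0, 28.6 and 8.14 CPM in MHC II-low dura, 34.3, 21.3, 20.5 and 22.6 in MHC II-high dura and 4.58, 4.62, 7.65 and 4.64 in choroid plexus. They were at 1.90, 2.55, 1.38 and 1.63 CPM in peritoneal macrophages and 0.0627, 0.679, 0.463 and 0.0661 in microglia, where 3 counts correspond to 0.174–0.198 CPM. Replicate 4 of MHC II-low dura lay just above the highest choroid plexus library. Acp5 was lower in choroid plexus than in MHC II-high (−2.20 ± 0.42) and MHC II-low dura (−2.34 ± 0.42, edgeR adjusted p = 0.00113 and 4e-04). Against microglia it was higher by 6.23 ± 0.56, 6.38 ± 0.56, 4.03 ± 0.56 and 2.51 ± 0.57 in MHC II-high dura, MHC II-low dura, choroid plexus and peritoneal macrophages (edgeR adjusted p of 0.000677 or less), the last 3.11 without microglia replicate 3. Acp2, the phosphatase of lysosomes in most cells, was at 345, 266, 311 and 334 CPM in microglia, 278, 235, 219 and 227 in MHC II-low dura, 257, 203, 194 and 202 in MHC II-high dura, 192, 179, 185 and 171 in choroid plexus and 84.5, 73.0, 60.6 and 87.6 in peritoneal macrophages. The peritoneal libraries lay below all others, with changes of −2.04 ± 0.12 against microglia to −1.25 ± 0.12 against choroid plexus (edgeR adjusted p = 1.22e-11 and 2.74e-08).

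Of the 8 membrane proteins, Cd63 and Laptm5 were called in at least 1 comparison. Cd63, a tetraspanin of late endosomes and lysosomes, was at 26.5, 35.02, 53.4 and 27.7 CPM in peritoneal macrophages and 226, 333, 269 and 186 in microglia. It was at 377, 419.8, 432 and 359 CPM in MHC II-high dura, 395, 401, 437 and 381 in choroid plexus and 495, 586, 587 and 471 in MHC II-low dura. The peritoneal libraries lay far below all others, at −2.83 ± 0.20 against microglia and −3.91 ± 0.21 against MHC II-low dura (edgeR adjusted p = 1.09e-10 and 2.58e-12). MHC II-low dura exceeded microglia by 1.08 ± 0.19, a call at the 2-fold line that was lost without microglia replicate 1 or 5 (0.995 and 0.889), under DESeq2, RLE and upper-quartile scaling (0.998, 0.998 and 0.980) and with the replicate number as a block (0.944). Cd63 has a named pseudogene, Cd63-ps, so reads of both may have been counted together. Laptm5, a membrane protein of blood cells, was at 5810.5, 4479, 5350.0 and 5727 CPM in microglia, 3992, 4865, 3632 and 5846 in peritoneal macrophages and 3680.1, 3916, 4235 and 3724 in choroid plexus. It was at 2803, 2297, 2412 and 2432 CPM in MHC II-high dura and 2479.6, 2559, 2312 and 2196 in MHC II-low dura. Both dura populations lay below all other libraries, at −1.10 ± 0.13 and −1.16 ± 0.13 against microglia (edgeR adjusted p = 4.58e-07 and 2.46e-07). Peritoneal macrophages exceeded MHC II-low dura by 0.94 ± 0.13, a change called without peritoneal replicate 1 or 3 (1.003 and 1.04).

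The other 6 membrane proteins differed less than 2-fold between their highest and lowest means. Lamp1 and Lamp2, its most abundant glycoproteins, had means of 1472–2134 CPM and 976–1839.9 CPM. Lamp2 was highest in peritoneal macrophages (1839.9 ± 198 CPM), 0.91 ± 0.09 above microglia and short of 2-fold. Cd68, a macrophage marker, had means of 614–878 CPM, Laptm4a of 508–711 CPM and the calcium channel Mcoln1 of 34.2–68.3 CPM. Mcoln1 was lower in peritoneal macrophages than in MHC II-low dura with a log2 change of −0.998, called without peritoneal replicate 1 or 2 or MHC II-low replicate 1 or 3 (−1.07 to −1.004). Scarb2, another membrane glycoprotein, was at 303, 201, 221 and 226 CPM in peritoneal macrophages, 202, 170.3, 212 and 204 in microglia and 163, 166, 153 and 151 in choroid plexus. It was at 143, 153, 149 and 133 CPM in MHC II-low dura and 156, 138, 134 and 130.1 in MHC II-high dura. With all libraries these 6 were called in no comparison, and for Scarb2 the change was 0.77 ± 0.11 in peritoneal macrophages against MHC II-high dura (edgeR adjusted p = 5.37e-06).

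The members set apart in peritoneal macrophages or microglia lie, in GRCm38 coordinates of GENCODE M21, at chr9:114401076-114474898 (Glb1, plus strand), chr8:122578242-122611463 (Galns, minus), chr8:25944453-25976753 (Hgsnat, minus), chr13:93771630-93943016 (Arsb, plus), chr8:106150399-106164715 (Pla2g15, plus), chr12:102394084-102439813 (Lgmn, minus), chr2:91202885-91214098 (Acp2, plus), chr10:128900989-128912822 (Cd63, plus), chr19:34492318-34527474 (Lipa, minus), chr6:136612070-136661928 (Plbd1, minus) and chr9:22126727-22135711 (Acp5, minus). Npc1 lies on chromosome 18. Exons of other genes overlap those of 14 of the 44 members, by over 20% of the exon length only in Arsb and Sgsh.

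The calls in peritoneal macrophages are given here by kind of breakdown, with no test between the kinds. Against MHC II-high dura 5 of 15 glycan genes were higher and 1 lower, 1 of 8 sphingolipid genes was higher and 1 lower, and 0 of 5 protein-class genes were higher and 1 lower (all genes 9.18% higher and 20.1% lower). Against microglia these counts were 3 and 1, 0 and 0, and 0 and 2 (all genes 18.9% and 25.7%). Against MHC II-low dura they were 4 and 3, 0 and 1, and 0 and 2 (all genes 11.9% and 20%), and against choroid plexus 3 and 3, 0 and 1, and 0 and 1 (all genes 12.6% and 24.1%). In the 3 comparisons among the dura and choroid plexus populations, no glycan or protein-class gene was called, and of the sphingolipid genes Gla alone. Peritoneal macrophages had a median log2 change of −0.92 to 0.15 over the 6 other lipid genes, and −0.14 to 0.02 over the 8 membrane proteins, where all genes tested had −0.13 to −0.10.

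Lists of further lysosomal genes were examined beside the members. Of 18 other hydrolases, 17 of them tested, 4 were higher and 3 lower in peritoneal macrophages than in microglia (18.9% and 25.7% of all genes; median 0.02, all genes −0.11), and over the 10 comparisons 0–4 were higher and 1–4 lower. Among the largest changes were those of heparanase Hpse (7.54 ± 0.43) and Smpdl3a (5.18 ± 0.32), a relative of Smpd1 at 1342 ± 10.6 CPM in peritoneal macrophages and no more than 69.9 CPM on average elsewhere. Smpdl3a and Smpd1 were thus unlike: the change of Smpd1 was −0.70 ± 0.10 in the same comparison. In both dura populations against microglia 3 of the 17 were higher and 2 lower (5 and 2 in MHC II-low dura without microglia replicate 3; all genes 15.7% and 12.2% in MHC II-high, 13.8% and 12.7% in MHC II-low dura), with Hpse at 5.60 ± 0.42 and 6.62 ± 0.42 and Arsg at −4.36 ± 0.25 and −3.09 ± 0.23. Arsg, a sulfatase of heparan sulfate, was also lower in choroid plexus than in microglia (−2.04 ± 0.22). Between the dura populations 0 were higher and 2 lower on the MHC II-high side (2.39% and 1.48% of all genes); one of these, Hpse (−1.02 ± 0.30, edgeR adjusted p = 0.0347), lost its call without any 1 of the 8 dura libraries (−1.07 to −0.90).

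Enzymes reach the lysosome through sorting receptors and are activated on the way. Of 16 genes of sorting and activation, 2 were higher and 5 lower in peritoneal macrophages than in microglia (2 and 3 without peritoneal replicate 1; all genes 18.9% and 25.7%), and over the 10 comparisons 0–3 were higher and 0–5 lower. The sorting receptor Sort1 averaged 300.0 ± 81.4 CPM in microglia, 174 ± 41.5 in peritoneal macrophages, 63.3 ± 8.77 in MHC II-low dura, 46.7 ± 7.24 in choroid plexus and 26.2 ± 5.57 in MHC II-high dura, lower than in microglia at −3.52 ± 0.22, −2.25 ± 0.21 and −2.68 ± 0.21 in MHC II-high dura, MHC II-low dura and choroid plexus. Its relative Sorl1 differed between the dura populations, 71.6 ± 10.5 CPM in MHC II-high and 16.9 ± 2.59 CPM in MHC II-low (2.08 ± 0.26, edgeR adjusted p = 2.63e-05), where Sort1 went the other way (−1.27 ± 0.20). The mannose 6-phosphate receptor Igf2r averaged 29.4 ± 13.4 CPM in peritoneal macrophages but no more than 5.07 CPM on average elsewhere. Its change against microglia was 2.73 ± 0.89, and 4.29 without microglia replicate 3, the one microglia library with a high value (13.3 CPM, against 0.529–2.19).

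Of 17 genes of the proton pump that acidifies the lysosome, 3 were higher and 0 lower in each dura population than in microglia (medians 0.32 and 0.51, all genes 0.02 and 0.02), where 15.7% and 13.8% of all genes were higher and 12.2% and 12.7% lower. In peritoneal macrophages 4 were higher and 1 lower than in microglia (18.9% and 25.7% of all genes). The last counts were 2 and 1 without peritoneal replicate 3 or microglia replicate 4 or 5, 2 and 2 without microglia replicate 1 and 3 and 2 without peritoneal replicate 4. Atp6v1a, a catalytic subunit, averaged 245 ± 5.24 CPM in MHC II-low dura, 228 ± 23.5 in peritoneal macrophages, 187 ± 12.8 in MHC II-high dura, 132 ± 9.81 in choroid plexus and 73.2 ± 17.0 in microglia. Atp6v0a1 was lowest in peritoneal macrophages (74.4 ± 19.0 CPM) and highest in MHC II-low dura (379 ± 11.3 CPM), a change of −2.35 ± 0.14 (edgeR adjusted p = 1.8e-11). Of 19 tested transporters and channels, 7 were lower and 2 higher in peritoneal macrophages than in microglia (25.7% and 18.9% of all genes). Against each dura population 4 were lower and 0 higher (20.1% and 9.18% of all genes for MHC II-high, 20% and 11.9% for MHC II-low), and the medians of the 3 comparisons were −0.33, −0.43 and −0.61. The nucleoside transporter Slc29a3 averaged 35.6 ± 11.9 CPM in peritoneal macrophages against 784 ± 161 CPM in microglia (−4.46 ± 0.22), and the cystine transporter Ctns 23.7 ± 2.74 against 86.6 ± 7.15 CPM (−1.87 ± 0.11, edgeR adjusted p = 3.64e-12).

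Transcription factors and nutrient sensors of the lysosome made up the last list, with 5 of 16 genes higher and 5 lower in peritoneal macrophages than in microglia (18.9% and 25.7% of all genes), and over the 10 comparisons 0–5 were higher and 1–5 lower. Tfeb read 32.0, 37.9, 31.0 and 59.1 CPM in peritoneal macrophages and 115, 107, 123 and 114 CPM in microglia, with means of 71.2 ± 4.15, 79.1 ± 7.73 and 103 ± 10.6 CPM in MHC II-high dura, MHC II-low dura and choroid plexus. Tfe3 averaged 107 ± 16.3 CPM in peritoneal macrophages but 204 ± 18.2, 231 ± 8.60, 227 ± 7.59 and 256 ± 15.8 CPM in MHC II-high dura, MHC II-low dura, choroid plexus and microglia. Peritoneal macrophages were thus lowest for both, at −1.52 ± 0.15 and −1.26 ± 0.10 against microglia (edgeR adjusted p = 2.46e-08 and 4.31e-10). Mitf was called in no comparison (means 28.3–39.6 CPM). Tfec, the family member restricted to macrophages and a few other cells, read 18.5, 22.3, 22.9 and 23.3 CPM in MHC II-low dura, 9.92, 7.03, 22.5 and 5.40 in peritoneal macrophages, 11.0, 9.90, 12.6 and 6.65 in MHC II-high dura, 2.73, 2.97, 1.96 and 2.67 in choroid plexus and 0.376, 0.370, 0.463 and 0.330 in microglia. It was lower in choroid plexus than in MHC II-low dura at −3.07 ± 0.34 (edgeR adjusted p = 1.68e-06), and higher than in microglia in each other population (2.72 to 5.80). In peritoneal macrophages replicate 3 was above the other libraries, and the change of 4.84 against microglia was 4.25 without it. The call of Tfec between the dura populations (−1.12 ± 0.31, edgeR adjusted p = 0.0238) was lost without MHC II-high replicate 2 or 4 or MHC II-low replicate 2, 3 or 4. Rptor, the subunit of mTORC1 that binds the lysosomal anchor, averaged 242 ± 38.4 CPM in microglia but 30.1 ± 2.66 CPM in peritoneal macrophages (−3.01 ± 0.14), while the anchor subunit Lamtor2 averaged 13.5 ± 2.60 and 61.0 ± 8.20 CPM (2.18 ± 0.15, edgeR adjusted p = 6.68e-11).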

How the data were processed

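Gene counts of 20 libraries were used as the authors deposited them, 1 table of whole-number counts per library with no normalization. Per the submitters' processing notes the tools were TopHat2 2.1.0 on mm10, with Trimmomatic 0.38, SAMtools 0.1.18 and FastQC 0.11.4; the counting program, its annotation and its strand setting are stated in no source used here, so that reads of genes overlapping on opposite strands may not have been told apart. Rows that name no gene were left out; of the counted reads 5.67–13.1% lay in no feature and 0.836–1.51% were ambiguous.

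Genes were filtered with filterByExpr (13960 of 24421 kept), scaled by TMM and fitted over all 20 libraries in 1 quasi-likelihood model with a term for each population (edgeR 4.0.16, limma 3.58.1, R 4.3.3), with 15 residual degrees of freedom and a common biological coefficient of variation of 0.302. P-values were adjusted by Benjamini and Hochberg over all genes tested. RPKM used the exon length of GENCODE M21. A depth of 3 counts corresponds to 0.0964–0.222 CPM. The 44 members, the 5 pathway lists and the marker lists were chosen with earlier results of these data known. Every library's value is given for members set apart in a population and for up to 4 members per comparison and direction with the largest called change, provided that the higher population reached 10 CPM and that libraries of the pair did not overlap, and for their partners; Gla, Grn and Man2b1 were added after their values were seen. Of each pathway list up to 3 called genes of largest change are named, with Tfeb, Tfe3, Mitf and Tfec in every case; some genes the rule would name are not reported here. Alternatives were DESeq2 1.42.0, other scalings, filters and call rules, the 2 populations alone, the replicate number as a block, and each library left out; leaving libraries out of the pathway lists was chosen after seeing the data.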

Additional observations from a re-analysis of the deposited data

Results flagged for a closer look

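In 14 of the 220 groups of 4 libraries (44 members in 5 populations), 6.36%, 1 library stood apart from the other 3 by a gap beyond the 95% limit of Dixon's test for 4 values. Chance gives about 1 group in 20. In MHC II-high dura replicate 1 was high for Glb1 (107.1 CPM, the others 90.42–93.06), Lgmn (1959, the others 1515–1581), Acp2 (257.4, the others 194.2–203.5) and Acp5 (34.27, the others 20.49–22.62). Replicate 3 of that population was high for Gla (58.67 CPM, the others 28.4–29.6) and Lamp2 (1264, the others 1201–1210), and replicate 4 was low for Smpd1 (57.98, the others 66.26–67.29). In MHC II-low dura replicate 2 was high for Sgsh (76.46 CPM, the others 53.98–54.61) and Ppt1 (355.1, the others 311.4–316.7). In choroid plexus replicate 3 was high for Acp5 (7.652 CPM, the others 4.582–4.638). Among peritoneal libraries replicate 3 was low for Gm2a (292 CPM, the others 354.3–357) and Lamp1 (1700, the others 1906–1938), replicate 4 was low for Galc (31.12, the others 42.84–45.04) and replicate 1 was high for Lamp2 (2134, the others 1718–1778). No microglia library stood apart by this measure for any member.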

How the results depend on the processing

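The 92 called fold changes of members were examined under 29 alternatives: 76 kept their call under each, 16 lost it under at least 1 and 0 turned direction. The alternatives with no minimum fold and with 1.5-fold use the main fit with a looser rule, so no call could be lost or turned under them. With the adjusted p alone 14 members were called between the dura populations, 29 in MHC II-high dura, 29 in MHC II-low dura and 31 in choroid plexus against microglia, 17 and 20 in choroid plexus against MHC II-high and MHC II-low dura, and 36, 32, 34 and 35 in peritoneal macrophages against microglia, MHC II-high dura, MHC II-low dura and choroid plexus; then 2 and 7 were set apart in MHC II-high and MHC II-low dura, 3 in choroid plexus, 16 in microglia and 20 in peritoneal macrophages. At 1.5-fold the counts were 6 between the dura populations, 14, 8 and 7 in choroid plexus against microglia, MHC II-high and MHC II-low dura, 23, 24, 25 and 22 in the peritoneal comparisons in the order above, and 6 and 14 set apart in microglia and peritoneal macrophages. Choroid plexus against MHC II-high dura had 1 call under upper-quartile scaling, with no filter and with the 2 populations alone. Leaving out 1 library gave 1–2 calls between the dura populations, 8–10, 11–12 and 6–9 against microglia (MHC II-high dura, MHC II-low dura, choroid plexus), 1–2 and 2–3 in choroid plexus against MHC II-high and MHC II-low dura, and 13–14, 14–15, 16–19 and 12–14 in the peritoneal comparisons; 2–4 members were set apart in microglia, 8–9 in peritoneal macrophages and 0 in the other populations. The F test called 42–44 members, and the minimum fold and the 2-population fits do not apply to it. Whether libraries with the same replicate number belong together is stated in none of the sources used here. Over 36 pairs with the same number the correlation of deviations was −0.146 to 0.12, over 0.1 in 1 pair. Over 124 pairs with different numbers it was −0.194 to 0.232, over 0.1 in 4. Such correlations cannot show whether libraries shared animals or a day of preparation. With the replicate block 1, 9, 11 and 8 members were called in MHC II-high against MHC II-low dura and in MHC II-high dura, MHC II-low dura and choroid plexus against microglia, 2 and 2 in choroid plexus against the dura populations, 13, 15, 16 and 14 in the peritoneal comparisons, and 44 by the F test; the block took the change of Sgsh in MHC II-high dura and of Cd63 in MHC II-low dura against microglia below 2-fold (0.990 and 0.944) and that of Gla in choroid plexus against microglia past it (−1.005), and moved no other call of a member. Upper-quartile scaling moved the median of all genes by −0.111 (log2) in MHC II-high dura against microglia. Depth limits Acp5 and Plbd1 in microglia, where some libraries held fewer than 3 counts.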
